A study of Mus musculus with 10 samples.

Results

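Signal was measured for 10 antiviral effector genes of the mouse: Isg15, Usp18, Ifit1, Ifit2, Ifit3, Rsad2, Mx1, Mx2, Ifi44 and Bst2. They were chosen by name, as every probe whose gene symbol in the deposited expression table was one of these, which gave 15 of the 41174 probes on the array. A gene could be tested where a probe passed the scanner's detection call on each of the 5 arrays of a group, which held for 8 of the 10 genes (9 probes) and for 13202 genes in all. Rsad2 and Mx1 could not be tested and are described by their values. Usp18 was tested through the Mes lines alone, since it was above background on 2 of 5 Epi arrays, while the other 7 tested genes were above background on all 10 arrays.

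The samples were 10 untreated cell lines, 5 labelled Mes and 5 labelled Epi, each expanded from 1 clone of mouse small cell lung cancer without the neuroendocrine state. The labels do not spell Mes and Epi out. All 10 lines carry the genotype RbL/L, Trp53L/L and were grown in RPMI1640 with 10% FBS, so both groups share the alleles and the medium. Separate tumours of origin are not named, so each p-value reflects the spread among these lines only, and 5 arrays per group limit its precision.

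These genes are switched on by interferons. Interferon binding to its receptor activates a complex of transcription factors, which binds interferon-stimulated response elements in promoters, and the induced proteins block viruses at entry, translation, genome copying or budding. Some tumour cell lines express this set without added interferon, a state often called an interferon signature.

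The promoters of these genes are shown because the elements that the complex binds lie there and because several of the genes were high in the same line. RefSeq promoter windows of GRCm38.p6 were found by symbol for 7 of the 10 genes, Isg15, Ifit1, Ifit2, Ifit3, Rsad2, Ifi44 and Bst2, and not for Usp18, Mx1 and Mx2. The core of the element, GAAANNGAAA on either strand with overlapping matches counted, was searched in the 250 bases before each start. It was found for Isg15 (3 matches), Ifit1, Ifit3 and Bst2 (2 each) and Rsad2 (1), and not for Ifi44 or in either window of Ifit2. Of 27025 genes with a window, 3.46% held a match and 0.211% held 2 or more. The last 200 bases before the start are given below, 5′ to 3′ on the strand of the gene, with matches in capitals: Isg15 at chr4:156200819-156201018 (minus strand), Ifit1 at chr19:34640689-34640888 (plus), Ifit3 at chr19:34583329-34583528 (plus), Bst2 at chr8:71537473-71537672 (minus) and Rsad2 at chr12:26456453-26456652 (minus).
Isg15: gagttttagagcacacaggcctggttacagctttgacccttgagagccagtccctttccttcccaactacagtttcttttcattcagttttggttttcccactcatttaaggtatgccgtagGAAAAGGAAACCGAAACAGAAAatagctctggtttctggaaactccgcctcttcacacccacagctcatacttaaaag
Ifit1: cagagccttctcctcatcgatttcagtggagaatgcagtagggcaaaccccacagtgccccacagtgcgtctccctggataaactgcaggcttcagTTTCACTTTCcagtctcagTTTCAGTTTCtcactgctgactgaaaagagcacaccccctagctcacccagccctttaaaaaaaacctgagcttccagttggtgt
Ifit3: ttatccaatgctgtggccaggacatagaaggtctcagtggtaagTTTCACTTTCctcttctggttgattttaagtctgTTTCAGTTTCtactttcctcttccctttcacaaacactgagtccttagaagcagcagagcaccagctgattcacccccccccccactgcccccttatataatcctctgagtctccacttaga
Bst2: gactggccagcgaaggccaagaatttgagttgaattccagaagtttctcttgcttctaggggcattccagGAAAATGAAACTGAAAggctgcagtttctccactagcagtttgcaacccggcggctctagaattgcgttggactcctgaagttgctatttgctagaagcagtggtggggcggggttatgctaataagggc
Rsad2: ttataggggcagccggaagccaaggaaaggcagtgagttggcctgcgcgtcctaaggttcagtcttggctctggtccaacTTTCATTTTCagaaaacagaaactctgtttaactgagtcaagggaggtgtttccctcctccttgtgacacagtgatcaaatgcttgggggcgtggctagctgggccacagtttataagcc
In Isg15 the 3 matches overlap and run from 78 to 57 bases before the start. Those of Bst2 overlap too, from 130 to 115 bases before it. In Ifit1 they stand apart, beginning 104 and 85 bases before the start, and likewise in Ifit3, at 156 and 122 bases. The single match of Rsad2 begins 120 bases before the start. A match in these letters is a description of sequence, and binding was not measured.

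An array detected 60.4% to 64.4% of the 41174 probes, and no spot was saturated. Line Mes1 stood apart from the other Mes lines: 2.79% of all tested genes were over 2-fold higher in Mes1 than in the next Mes line. For the other 4 lines this share was 0.258% to 1.2%. The Mes1 array correlated with theirs at 0.948 to 0.961 across probes, which overlapped the 0.959 to 0.986 among those 4. Its share of probes above background was the highest of the 10 arrays. Values without Mes1 are therefore given beside the results on the set and on its pathway. Slide 1 held Epi1, Epi3, Epi4 and Epi5, slide 3 held Mes1, Mes2 and Mes5, and only slide 2, with Mes3, Mes4 and Epi2, held both groups. Values within slide 2 thus compare 2 Mes lines with Epi2 alone. Among epithelial markers, Krt7 was higher in Epi lines by at least 43.9-fold, Krt18 did not pass the test, Cdh1 was above background in 3 Epi and no Mes lines, and Epcam on no array, while all 5 mesenchymal markers, Vim among them, were above background on every array of both groups. None of these 5 was higher in Mes lines, and Zeb1 was lower there, at -0.56 (adjusted p = 0.0355). Of 8 leukocyte markers, Itgam, Adgre1 and Lyz2 were above background on no array, Ptprc on 1 Epi array and Tyrobp on 1 Mes array, while Cd79a was above background in 4 Mes and 1 Epi lines and Cd3e and Cd68 in all 10. Cd68 was higher in Mes lines, with a mean of 5.75 against 4.49 and no overlap (adjusted p = 0.00371), and its difference was 1.26 with and without Mes1. None of 3 plasmacytoid dendritic cell markers was above background on any array. The summed log2 level of the leukocyte list ranged from 14.6 to 18.4 in Mes and 14.9 to 16.5 in Epi lines. Most of this list was below background on most arrays, so the sum cannot show that leukocyte content was alike. The part of leukocyte content in the levels of the antiviral genes was not tested.

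Isg15, Mx2 and Ifit1 were higher in Mes lines, and no member was lower. Of all tested genes, 28.4% differed between the groups (27.7% of the 24475 tested probes), 15.7% being higher and 12.7% lower in Mes lines, so 3 of 8 is to be read against a background of 15.7%. The other 5 tested members, Usp18, Ifit2, Ifit3, Ifi44 and Bst2, did not pass the test. The count was 3 without Mes1, where 17.1% of all tested genes were higher. It was 1, Isg15 alone, without Mes3 (11.7% of all genes), Epi3 (11.3%) or Epi4 (11.8%), and also 1 with no filter on dim probes, where 8.7% of 21211 genes were higher. With only the 12197 genes above background on all 10 arrays, where 15.4% were higher, it was 3. Mes2 and Mes3 were the most alike Mes arrays (r = 0.986 across probes), and with these averaged into 1 sample, and Epi3 to Epi5 likewise, no member passed (Isg15 at 2.27, adjusted p = 0.0944, with Mx2 and Ifit1 at 2.27 and 1.49). The median difference of the 8 was 1.48 on the log2 scale, against 0.03 for all tested genes, and it was 0.99 against 0.05 without Mes1. Every Mes line was above every Epi line for 2 of the 8, Isg15 and Mx2, against 10.6% of all tested genes (the reverse order held for 8.31%). Differences are Mes minus Epi in log2 signal from limma, with standard errors, 95% intervals where given, and p-values adjusted by Benjamini-Hochberg over all tested probes. In bulk RNA, fewer cells making a transcript and less transcript per cell cannot be told apart.

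**Figure D1:**
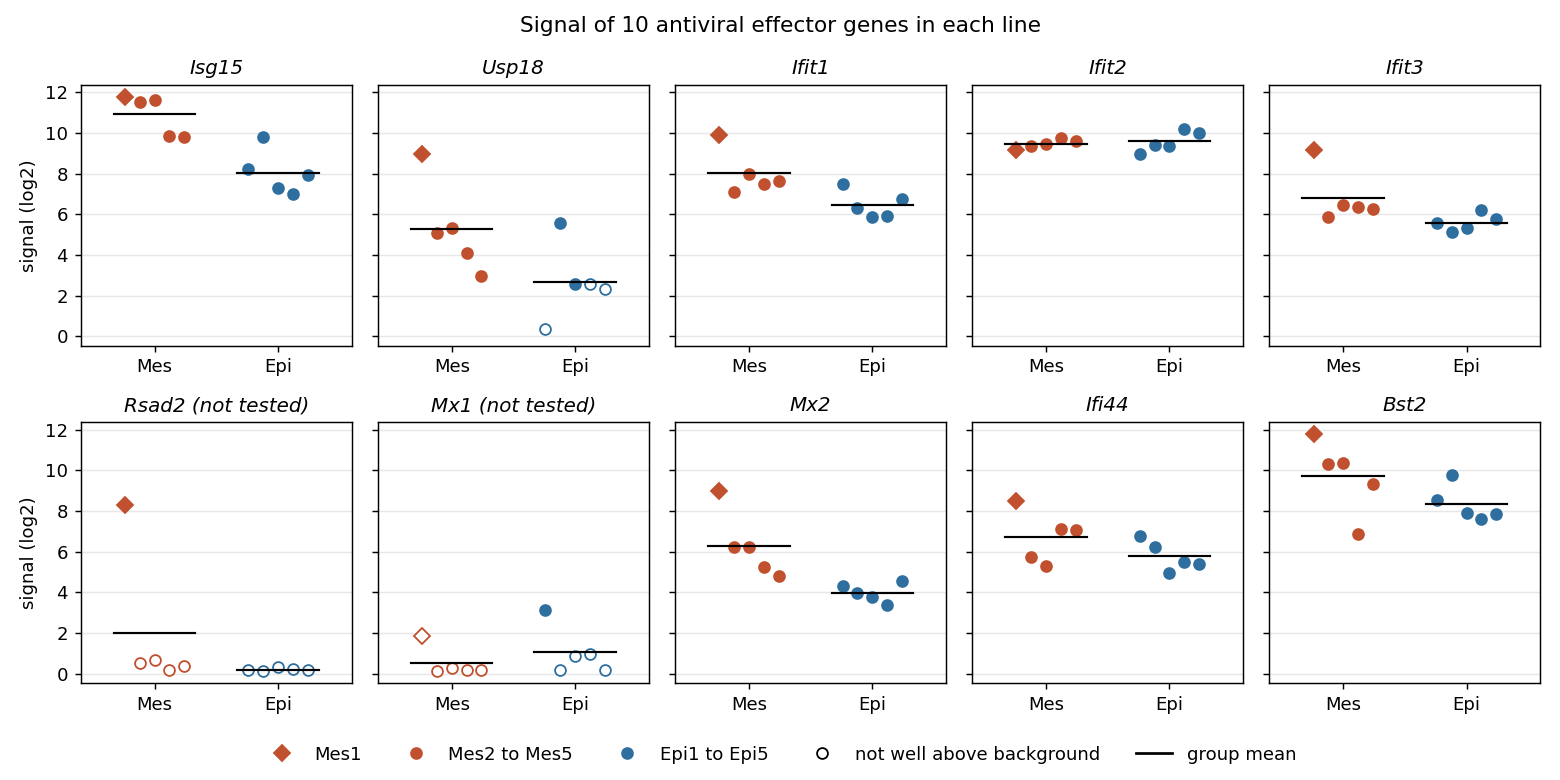
Log2 signal of the 10 antiviral effector genes (1 panel each) in the 5 Mes and 5 Epi lines. Points are lines, Mes1 is a diamond, open symbols are not well above background, and bars are group means. Mes1 is the top point of the Mes group in every panel but that of Ifit2, where it is the lowest Mes line. In the panel of Rsad2 it stands alone at 8.27.

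Isg15 encodes a ubiquitin-like protein that is joined to other proteins during the antiviral response. Its probe (chr4:155573922-155573981 of mm9, minus strand) gave a log2 signal of 11.75, 11.53, 11.63, 9.86 and 9.81 in Mes1 to Mes5 and of 8.24, 9.78, 7.29, 7.00 and 7.95 in Epi1 to Epi5. Mes1, Mes2 and Mes3 were high and alike, Mes4 and Mes5 were lower, and Epi2 reached almost the level of Mes5 without overlap. The group means were 10.92 ± 0.99 and 8.05 ± 1.09 (SD, n = 5 each), a difference of 2.86 (SE 0.58, 95% interval 1.58 to 4.15, limma adjusted p = 0.00597) or 7.28-fold. Without Mes1 the difference was 2.66 (adjusted p = 0.0118), and the call held with each of the 10 lines left out in turn. Within slide 2 the difference was 0.97 (adjusted p = 0.602). Isg15 lies on chromosome 4, where 43.6% of the 819 other tested genes were also higher in Mes lines and 4.64% lower, with a median difference of 0.55. Of the 39 tested genes within 1 Mb of it, 22 were higher and 1 was lower, with a median of 0.74, and the part of this in the Isg15 difference was not tested.

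Usp18 encodes the protease that takes ISG15 off its targets and damps signalling at the interferon receptor. Its log2 signal was 8.94, 5.10, 5.32, 4.10 and 2.95 in Mes1 to Mes5 and 0.36, 5.58, 2.57, 2.57 and 2.31 in Epi1 to Epi5 (chr6:121220513-121220572 of mm9). Mes1 was far above all others, and Epi2 lay above the other 4 Mes lines. Only Epi2 and Epi3 of the Epi lines were well above background, so the fold is a bound: the Mes mean of 5.28 was at least 4.16-fold above that of the Epi lines, whose measured mean was 2.68. That bound holds for the detection floor used, and smaller differences came from other treatments of dim signal, 1.18 with a floor of 16 and 0.54 with normexp correction (log2). The difference of 2.60 (SE 1.14, adjusted p = 0.114) did not pass the test. It was 1.69 without Mes1 (adjusted p = 0.189) and 3.33 without Epi2, where it passed (adjusted p = 0.043). Within slide 2 it turned to -0.87 (adjusted p = 0.521).

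Of the enzymes that attach ISG15 (Uba7 activates it, Ube2l6 conjugates it, Herc6 is the main ligase in mice and Trim25 another ligase), all 4 were tested. The difference of Herc6 was 1.04 (SE 0.23, adjusted p = 0.00979) and 1.06 without Mes1, and the other 3 did not pass. The list median was 0.28, and 0.29 without Mes1. Mes1 was not the highest Mes line for Herc6, at 8.81 against 9.25 in Mes3. With Mes2 and Mes3 averaged, and Epi3 to Epi5 averaged, Herc6 no longer passed (0.92, adjusted p = 0.061).

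The Ifit proteins bind foreign RNA ends and block its translation, and their genes lie side by side on chromosome 19. Signal of Ifit1 (chr19:34723796-34723855 of mm9, plus strand) was 9.89, 7.11, 7.97, 7.49 and 7.65 in Mes1 to Mes5 and 7.47, 6.33, 5.89, 5.89 and 6.75 in Epi1 to Epi5 (log2). Mes1 was highest, and Mes2 fell just below Epi1, so 4 of 5 Mes lines lay above the highest Epi line. The difference was 1.56 (SE 0.51, 95% interval 0.44 to 2.68, adjusted p = 0.0428), from means of 8.03 ± 1.09 and 6.46 ± 0.67 (SD, n = 5). Without Mes1 it was smaller and still passed, at 1.09 (adjusted p = 0.0357). It was lost without Mes3 (1.57), Mes4 (1.69), Mes5 (1.65), Epi2 (1.53), Epi3 (1.42), Epi4 (1.42) or Epi5 (1.63), at adjusted p-values from 0.0528 to 0.0966, and within slide 2 it was 1.41 (adjusted p = 0.262). With normexp background correction it was 0.92 (adjusted p = 0.107).

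Ifit3 was not called. Its log2 signal was 9.17, 5.87, 6.48, 6.35 and 6.24 in Mes1 to Mes5 and 5.56, 5.12, 5.30, 6.23 and 5.75 in Epi1 to Epi5 (chr19:34663105-34663164 of mm9). Mes1 was 6.46-fold above the next Mes line, and the other 4 Mes lines lay close to the Epi lines, with Mes2 below Epi4. The difference of 1.23 (SE 0.55, adjusted p = 0.122) was 0.64 without Mes1 (SE 0.23, adjusted p = 0.065). Within slide 2 it was 1.30 (adjusted p = 0.25), and with normexp correction 0.53. Ifit3b is a near copy of Ifit3, so how their signal is split between probes is uncertain.

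Ifit2 was not called either. Its brighter probe (chr19:34650244-34650303 of mm9) gave 9.18, 9.38, 9.47, 9.77 and 9.61 in Mes1 to Mes5 and 8.97, 9.42, 9.38, 10.18 and 10.02 in Epi1 to Epi5 (log2). The groups overlapped throughout, the top lines were Epi4 and Epi5, and Mes1 was the lowest Mes line. The difference was -0.11 (SE 0.23, 95% interval -0.63 to 0.40, adjusted p = 0.741), and that of the second probe, chr19:34648307-34648366, was -0.04 (adjusted p = 0.909). The difference of the brighter probe was -0.04 without Mes1 and turned to 0.03 without Epi4 and to 0.20 within slide 2. The 2 RefSeq windows of Ifit2 were without the element shown above for Ifit1 and Ifit3. Any other start of Ifit2 was not searched, so these windows do not show that the gene lacks the element. The window of Ifi44 held no match either, and Mes1 was its highest line, at 8.48. The search took only the exact core, so similar runs with another spacing were not counted. The part of the element in the Ifit2 levels was not tested. On chromosome 19, 5.12% of the other tested genes were higher and 21.3% lower in Mes lines (Ifit1 left out of the count), a direction opposite to that of Ifit1.

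Mx2 is a dynamin-like GTPase of the Mx family, which blocks viruses inside the cell. Signal of its probe (chr16:97782327-97782386 of mm9, plus strand) was 8.99, 6.24, 6.21, 5.23 and 4.82 in Mes1 to Mes5 and 4.31, 3.95, 3.75, 3.38 and 4.56 in Epi1 to Epi5 (log2). Mes1 was far above the rest, and the lowest Mes line, Mes5, was still above the highest Epi line, Epi5. The means were 6.30 ± 1.63 and 3.99 ± 0.46 (SD, n = 5), with a difference of 2.31 (SE 0.67, 95% interval 0.84 to 3.78, adjusted p = 0.0269) or 4.96-fold. Without Mes1 it was 1.64 (SE 0.35, adjusted p = 0.00858). The call was lost without Mes2 (2.32), Mes3 (2.33), Epi3 (2.25) or Epi4 (2.16), at adjusted p-values from 0.0515 to 0.0634. Normexp correction left 0.61 (adjusted p = 0.175), and slide 2 alone gave 1.77 (adjusted p = 0.282). On chromosome 16, 21.4% of the other tested genes were higher in Mes lines and 6.99% lower, with a median of 0.19, and of the 4 tested within 1 Mb, 2 were higher and none lower, with a median of 0.70. The part of this in the Mx2 difference was not tested.

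The 2 probes of Mx1, its relative on the same chromosome, showed almost nothing. One (chr16:97672001-97672060 of mm9) was above background in Epi1 alone, at 3.13, with Mes1 at 1.83 and the other lines from 0.15 to 0.96. The other (chr16:97669616-97669675) was above background on no array, and its highest value was 1.46 in Mes1. Many inbred mouse strains carry a defective Mx1 gene, and the labels name no strain. Only RNA was measured, so whether Mx1 or Mx2 makes a working protein in these lines is not known.

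Rsad2 encodes viperin, a radical SAM enzyme that makes a chain-terminating nucleotide against viral polymerases. Its brightest probe in Mes1 (chr12:27127859-27127918 of mm9) read 8.27 in Mes1, 0.53, 0.65, 0.16 and 0.35 in Mes2 to Mes5 and 0.17, 0.13, 0.30, 0.21 and 0.16 in Epi1 to Epi5 (log2). Mes1 alone was above background there and was at least 53.6-fold above the next Mes line. The other 2 probes gave the same picture. One (chr12:27135585-27138886 of mm9) read 7.39 in Mes1, at least 29.2-fold above the next Mes line. The other (chr12:27130424-27133462) read 6.60 in Mes1 and was also above background in Mes2, at 2.45, with Mes1 at least 16.9-fold higher. None of the 3 was above background in any Epi line. No test was made, because no group had all 5 arrays above background.

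Cmpk2, which lies beside Rsad2 and is induced with it, showed the same single line. It belongs to a list of 5 relatives and neighbours (Ifit1bl1, Ifit1bl2, Ifit3b, Ifi44l and Cmpk2), none of which was measured well enough to be tested, and it is named after its values were seen. Its log2 signal was 7.04 in Mes1 and 0.56 to 0.85 in the other 9 lines, so Mes1 was at least 22.8-fold above the next Mes line. Ifit3b was above background in Mes1 alone, at 4.56, at least 4.11-fold above the next Mes line.

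Ifi44 and Bst2 complete the set. Ifi44, an interferon-induced protein of the cytoplasm, had a log2 signal of 8.48, 5.74, 5.29, 7.11 and 7.09 in Mes1 to Mes5 and of 6.75, 6.21, 4.97, 5.49 and 5.38 in Epi1 to Epi5 (chr3:151394035-151394094 of mm9). Mes1 was highest and Mes3 was among the lowest lines, so the groups overlapped. The difference of 0.98 (SE 0.57, adjusted p = 0.223) was 0.55 without Mes1 (adjusted p = 0.412), within slide 2 it was -0.01, and with normexp correction 0.40. The second probe (chr3:151409005-151409064) was above background in 4 Mes and 2 Epi lines and was again highest in Mes1, at 6.02 against 4.46 in Mes4.

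Bst2, or tetherin, holds budding virus particles at the cell surface. It read 11.78, 10.31, 10.36, 6.88 and 9.33 in Mes1 to Mes5 and 8.54, 9.76, 7.91, 7.63 and 7.88 in Epi1 to Epi5 (chr8:74058603-74058662 of mm9, log2). Mes4 was the lowest of all 10 lines, Mes1 the highest, and Epi2 the top Epi line. The difference of 1.39 (SE 0.79, adjusted p = 0.211) rose to 2.11 without Mes4, where it passed (adjusted p = 0.0242), was 0.88 without Mes1 (adjusted p = 0.384) and was -1.14 within slide 2 (adjusted p = 0.746).

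**Figure D2:**
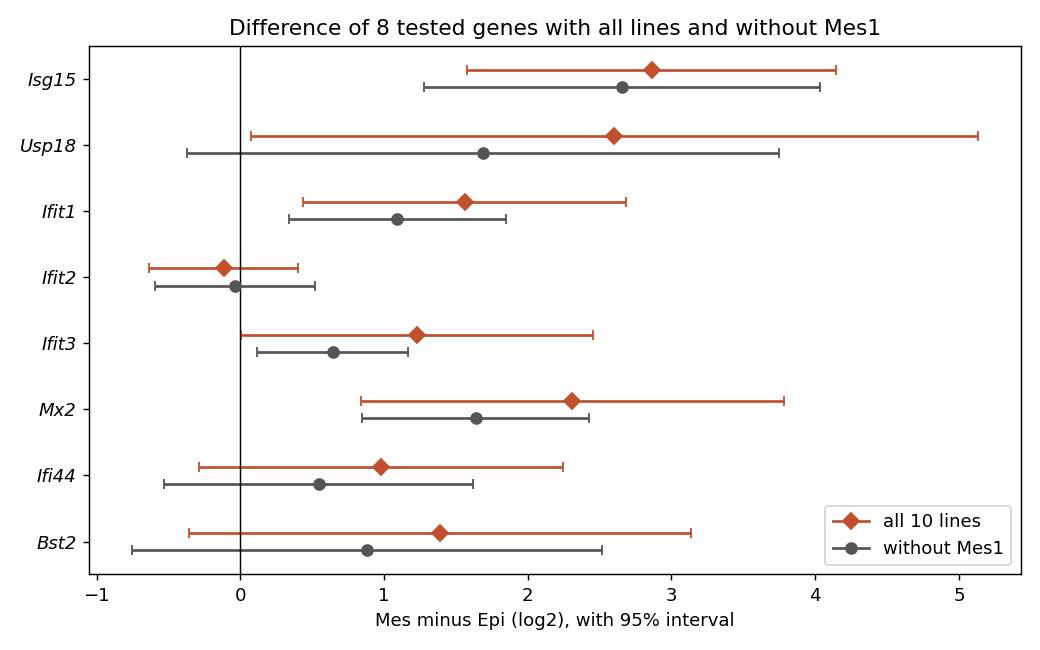
Mes minus Epi difference of the 8 tested genes (log2, x axis) with 95% intervals, from all 10 lines (diamonds) and without Mes1 (circles). Isg15, Mx2 and Ifit1 pass the adjusted test in both versions, the interval of Mx2 narrows without Mes1, and Ifit2 sits at -0.11.

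Mes1 was the highest Mes line for 7 of the 8 tested members, all but Ifit2, whereas it was the highest for 23.7% of all tested genes. It was over 2-fold above the next Mes line for 6 of the 8 (Usp18, Ifit1, Ifit3, Mx2, Ifi44 and Bst2), against the 2.79% of all tested genes given above. No other Mes line was over 2-fold above the next one for any tested member. The mean deviation of the 8 from their group means was 1.86 in Mes1, from -0.81 to -0.07 in Mes2 to Mes5, 0.71 in Epi2 and from -0.43 to 0.02 in the other Epi lines. By this mean, Mes1 and, among Epi lines, Epi2 were highest. Epi2 was the only Epi array on slide 2, so its line and its slide cannot be told apart. Epi2 was the top Epi line for Isg15, Usp18 and Bst2. It was the lowest Epi line for Ifit3 (5.12) and lay below the Epi mean for Ifit1, Ifit2 and Mx2.

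The members did not all move together across lines. Taking each value minus its group mean over the 10 lines, the correlation of a member with the mean of the other 7 was highest for Mx2 (0.87) and lay between 0.61 and 0.72 for Isg15, Usp18, Ifit1, Ifit3 and Bst2. It was 0.43 for Ifi44 and -0.45 for Ifit2. The point of Mes1 was then left out, while the Mes mean that was subtracted still included it. So computed, the correlation was 0.77 for Isg15, 0.59 for Mx2, 0.57 for Bst2 and 0.41 for Usp18. It was 0.25 for Ifit1, -0.002 for Ifit3 and -0.17 for Ifi44. These values are thus not free of Mes1. Pairs ranged from -0.56 (Ifit2 with Bst2) to 0.83 (Ifit1 with Mx2). The lines share arrays and slides between genes, so these are descriptions of 10 points.

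The genes outside the set whose deviations followed the mean of the 8 most closely were Plvap (r = 0.961), Ptchd4 (0.952), Zc3h14 (0.950), Ldha (0.948), Itpk1 (0.941), Pgk1 (0.940), Loxl1 (0.930) and Zc3h12a (0.926), over the same 10 lines. All 8 were highest in Mes1 among Mes lines and in Epi2 among Epi lines. This order follows from their selection, because the mean they were chosen to follow peaked in Mes1 (1.86) and, among Epi lines, Epi2 (0.71). Their correlations without Mes1 were not computed. Between the groups, Ptchd4 was lower in Mes, with a mean of 5.95 against 8.95 (adjusted p = 0.0202), Zc3h14 was higher, at 11.97 against 11.41 (adjusted p = 0.0242), and the other 6 did not pass.

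The wider interferon response was read from 6 lists with 83 genes, of which 55 were tested. In Mes lines 15 were higher (27.3%, against 15.7% of all tested genes), with a median difference of 0.51. Only 3 were lower, where 12.7% of all tested genes were lower. Without Mes1, 9 were higher (16.4%), a share no larger than the 17.1% of all tested genes. Without that line 5 were lower, and the median was 0.40. The count of higher genes was also 9 without Mes2 (12.3% of all tested genes), Epi3 (11.3%) or Epi4 (11.8%). Mes1 was the highest Mes line for 28 of the 55 (50.9%) and over 2-fold above the next for 9 (16.4%), while the other 4 Mes lines were so for 1 gene in all, Ube2l6 in Mes5.

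The interferon-induced GTPases attack the membranes around intracellular pathogens. They were higher in Mes lines for 4 of 9 tested genes and lower for none, with a median of 0.84 (0.61 without Mes1). Of all tested genes, 15.7% were higher and 12.7% lower. Gbp5 entered the test through the Mes lines, where it was high. Among genes above background on all 10 arrays, of which 15.4% were higher, 3 of the list were higher. Gbp7 was higher by 2.99 (SE 0.38, adjusted p = 0.00081), and its highest Epi value of 5.47 in Epi2 lay below its lowest Mes value of 6.90 in Mes4. With normexp correction its difference was 1.05 and still passed. Irgm2 was higher by 1.54 (SE 0.36, adjusted p = 0.011), Gbp5 by 2.12 (adjusted p = 0.0371, at least 4.16-fold, with 4 of 5 Epi lines above background) and Igtp by 0.84 (adjusted p = 0.0484). Mes1 was the highest Mes line for 8 of the 9. Without Mes1, Gbp7 (2.81) and Irgm2 (1.28) still passed, and Gbp5 (1.71, adjusted p = 0.0645) and Igtp (0.61, adjusted p = 0.0587) did not. Gbp5 was 1.43 with a floor of 16 (adjusted p = 0.0987) and 0.37 with normexp correction (adjusted p = 0.141), and with no filter on dim probes it did not pass (adjusted p = 0.0718). Igtp did not pass in these 3 settings either. With related lines averaged, 1 gene of the list was called, Gbp7, and Irgm2 did not pass (adjusted p = 0.0656). Gbp5 was also lost without Mes2, Mes5, Epi1, Epi3, Epi4 or Epi5 (differences of 1.80 to 2.24), and Igtp without Mes2, Mes3 or any single Epi line (0.73 to 0.94). Within slide 2, Gbp7 was at 1.80, Irgm2 at 1.11, Igtp at 1.04 and Gbp5 at -0.80, and none passed.

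Of the other interferon-induced effectors, 9 of 28 tested were higher and 2 lower, with a median of 0.51 (0.46 without Mes1). Of all tested genes, 15.7% were higher and 12.7% lower. Among genes above background on all 10 arrays, of which 15.4% were higher, 8 of the list were higher. With related lines averaged the count was 3, and 601 of all 13202 genes were higher. Shfl, which stops viral ribosomal frameshifting, was higher by 5.30 (SE 0.78, adjusted p = 0.00146), 5.99 without Mes1, with Mes1 the lowest Mes line at 7.13 against 9.67 to 11.32 in the others. Psmb8, an immunoproteasome subunit, was higher by 4.50 (SE 0.41, adjusted p = 0.000168, 4.45 without Mes1), and Parp14, an ADP-ribosyltransferase, by 3.61 (SE 0.64, adjusted p = 0.00332, 3.41 without Mes1). With normexp correction Shfl was at 2.77 and Parp14 at 1.64, and with related lines averaged Parp14 did not pass (2.95, adjusted p = 0.0635). Lgals9, the sugar-binding galectin-9, was higher in Epi lines by at least 21.5-fold, with a fitted difference of -4.45 (adjusted p = 0.0131) and 3 of 5 Mes lines above background. It entered the test through the Epi lines, where it was high. The difference was -5.34 without Mes1, -1.72 with normexp correction (adjusted p = 0.00846) and -3.58, not passing, with related lines averaged. Mes1 had the highest Lgals9 signal of the Mes lines, at 8.39. The other lower gene was Eif2ak2, the kinase PKR that halts translation, at -0.55 (SE 0.13, adjusted p = 0.014) and -0.53 without Mes1. Without Mes1, 6 of the 28 were higher, where 17.1% of all tested genes were higher. Within slide 2, where none passed, Shfl was at 6.59, Psmb8 at 4.37, Parp14 at 1.74 and Lgals9 at -5.65.

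Of 10 tested factors that carry the interferon signal, 1 passed. Jak1, the receptor kinase, was higher in Mes lines by 0.63 (adjusted p = 0.0366, 0.0554 without Mes1). Jak1 also lost its call without Mes2, Mes3, Epi3, Epi4 or Epi5 (0.53 to 0.60). The others did not pass, and the list median was 0.13 (0.16 without Mes1). The largest difference of the list was among them, at 1.01 (SE 0.41, adjusted p = 0.0913) and 0.71 without Mes1. The count of higher genes moved in 13 of the 24 alternative settings. It was 3 without Mes5, 2 with the replicate number as a block and 0 in the rest of these 13. Stat2, named after its values were seen, was 8.73 in Mes1 and 6.43 to 7.32 in the other Mes lines, against 7.05 to 8.34 in Epi lines. Its difference was -0.50 (adjusted p = 0.374), and without Mes1 it was called lower in Mes lines, at -0.86 (adjusted p = 0.0452). Among the interferon genes, 4 of 13 on the array were tested. Ifna13 was lower in Mes lines by a small step of -0.36 (SE 0.11, adjusted p = 0.0351, -0.38 without Mes1), and 15 of the 24 alternative settings took that call away. Ifnb1, the gene of interferon beta, was above background in Mes1 alone, at 3.57. Ifnab was 6.92 in Mes1 against 4.49 to 5.22 in the other Mes lines and 4.34 to 5.08 in Epi lines. Mes1 was the highest Mes line for 2 of the 4 tested, Ifnab and Ifna13. Of the untested ones, all dim, it was highest for Ifnb1 and Ifnk and lowest for Ifna2, Ifna4, Ifna5 and Ifna12. For Ifne, Ifnl3 and Ifng it was neither. Of the interferon genes named here, all but Ifna13 are named after their values were seen. The part of these interferon signals in the Mes1 levels of the set was not tested.

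**Figure D3:**
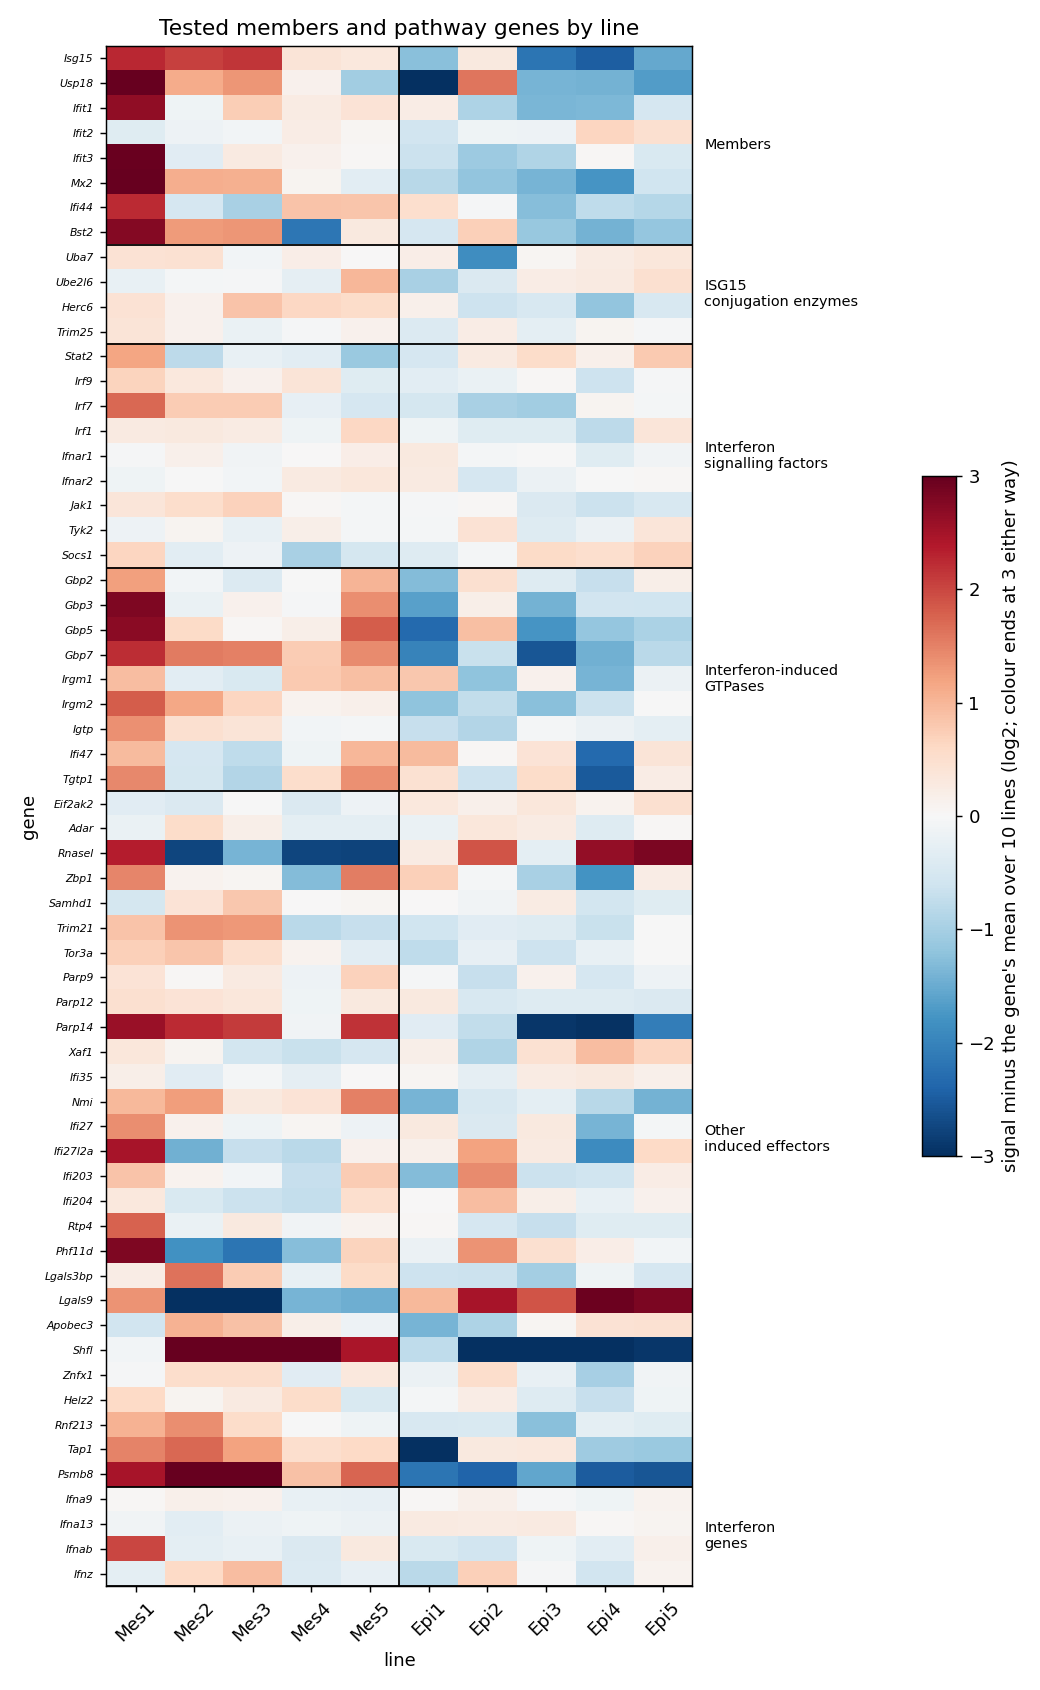
Signal of each tested member and of the tested pathway genes but 1 (rows) in the 10 lines (columns), as log2 signal minus the mean of the gene over all lines, with colour ending at 3 on either side. Red is above the mean of the gene. The Mes1 column is red for 7 of the 8 tested members, and Ifit2 is nearly white across the lines.

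The element was also set against the values of all other genes, as a description. Leaving the members out, 301 tested genes had a match in their window. The test called 15% of them higher in Mes and 13.6% lower, with a median of 0.09. For the 9824 tested genes without a match the shares were 15.9% and 13%, with a median of 0.02. Mes1 was over 2-fold above the next Mes line for 4.98% of the genes with a match and 2.52% of those without. Among the members, the windows with 2 or more matches belonged to Isg15 and Ifit1, which were called, and to Ifit3 and Bst2, which were not.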

How the data were processed

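RNA of 10 lines was hybridised to Agilent mouse arrays with 1 dye, as the labels' protocols state. Deposited files of the scanner hold intensity values that the authors extracted with Agilent Feature Extraction 10.7, per the submitters' processing notes. They are background-subtracted and not scaled between arrays, per the file headers. The authors also deposited 2 identical log2 tables, quantile-normalized according to the series text. Their column medians were 5.07, and they correlated with the scanner values at 0.9996 to 0.9999 across probes, which gives log2 scale, no centring and the same direction.

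Here control spots (1639 per array) and spots with outlier flags (46 to 87) were left out, spots of a probe were averaged, and intensities were quantile-normalized and set to log2 with a floor of 1. Probes detected (well above background) on each of the 5 arrays of either group were tested, and the brightest tested probe stood for a gene. The test was limma 3.58.1 under R 4.3.3 (lmFit, then eBayes) over all 24475 tested probes, with Benjamini-Hochberg adjustment and a threshold of 0.05, and the code was tested on simulated data. A fold is given as a bound where the dim group had undetected arrays, with the lowest detected signal of each such array as its floor. Probe symbols and mm9 positions are those of the deposited table, with symbols updated through RefSeq for 33405 of 34893 named probes. The table does not say which exon or UTR a probe lies in.

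The rule for named genes took all 10 members, up to 4 called genes of each list with the largest differences, and the 8 genes whose deviations followed those of the members most closely. Others are marked as named after their values were seen. A gene of the signalling list is not reported here, while counts include it. The members and lists were chosen with earlier results of these data known. Alternatives covered scaling at the 75th percentile, normexp correction with an offset of 50 on median signals (the mean-signal column was missing), the deposited table, both filters, slide, replicate number, a floor of 16, array weights, a robust fit with a trend, the mean over probes, averaged related lines and each line left out.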

Additional observations from a re-analysis of the deposited data

Results flagged for a closer look

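A line was singled out when its gap to the nearest of the other lines of its group, divided by the range of the group, was above Dixon's critical value of 0.71 for 5 lines. Chance alone singles out about 1 in 20 groups. Of 46 groups of values examined, 6 were singled out, 3 of them for Mes1. Ifit3 in Mes1 was at 9.17 (log2), against 5.87 to 6.48 in the other Mes lines. Of the Rsad2 probes, 2 were singled out in Mes1, at 7.39 against 0.15 to 0.19 and at 8.27 against 0.16 to 0.65. Mx1 in Epi1 was at 3.13, against 0.16 to 0.96 in the other Epi lines. Parp14 in Mes4 was at 6.58, against 8.79 to 9.28 in the other Mes lines. Shfl in Epi1 was at 6.44, against 3.72 to 4.29 in the other Epi lines.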

How the results depend on the processing

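Isg15 kept its direction in all 24 alternatives and its call in 21, and its 3 losses came with slide 2 alone, slide as a fixed block and related lines averaged (Mes2 with Mes3, and Epi3 with Epi4 and Epi5). Mx2 lost its call in 10 of 24 and Ifit1 in 13 of 24. The cause was not tested. The count of members called, 3, was 1 with a floor of 16, with no filter on dim probes and with normexp correction, and 0 with related lines averaged (2 at an unadjusted p under 0.05), with slide 2 alone (3 unadjusted) and with slide as a fixed block (0 unadjusted). Leaving out single lines gave 1 to 3. Of all tested genes, 3752 differed, of which 2070 were higher. With related lines averaged these were 989 and 601, with slide as a fixed block 97 and 62, and with slide 2 alone limma called 0 genes, with 2286 at an unadjusted p under 0.05. Single lines left out gave 2664 to 4109 and 1490 to 2262. Of the pathway genes, 15 were higher and 3 lower. The higher ones numbered 4 with related lines averaged, 0 in slide 2 alone, 1 with slide as a fixed block and 9 to 14 with single lines left out. The lower ones numbered 6 with array weights, 0 in those 3 other settings and 2 to 5 with single lines left out. Slide 2 holds 1 Epi array, assumed to vary like the Mes arrays. Both slide settings turned the direction of Usp18 (-0.87), Ifit2 (0.20), Ifi44 (-0.0093), Bst2 (-1.14) and Gbp5 (-0.80). Ifit2 also turned with related lines averaged (0.077), and single lines left out gave it -0.27 to 0.032, the positive value being that without Epi4.

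Lines of the 2 groups share replicate numbers, but deviations of same-numbered lines correlated at 0.014 to 0.0434, so the numbers do not pair them. With the replicate number as a block, 2949 genes, 3 members and 11 higher pathway genes were called. The log2 floor and background leave Rsad2, Mx1 and Usp18 in dim lines with bounds only.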
